A study of Homo sapiens with 20 samples.

Results

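The results below cover 10 genes of chromosome band 5q35, which were FGF18 and 9 of its neighbours, taken by symbol out of 57736 gene identifiers counted in the drug-treated libraries and 53153 genes estimated in the excision libraries. From the centromeric side outward they lie in the order LCP2, RANBP17, NPM1, FGF18, FBXW11, STK10, EFCAB9, UBTD2, SH3PXD2B and NEURL1B, and other genes lie between some of them. All libraries were total RNA from K562, a human line of erythroid and myeloid character from chronic myeloid leukaemia. The drug arm held 2 libraries each of cells given 5 µM GSK343 for 72 h, 100 µM X5050 for 72 h, both drugs at those doses for 8 h, 24 h or 72 h, or the solvent DMSO for 72 h. The excision arm held 2 libraries each of K562 after CRISPR excision of silencer 1 (S1KO), of silencer 2 (S2KO) or of both silencers (DKO), and of K562 with an empty vector (EV). The labels give no position for the silencers, no drug treatment for the excision arm and no word on whether an excised line was grown from a single cell. GSK343 inhibits EZH2, and X5050 lowers the repressor REST. The design text calls the libraries of a group biological replicates, so p-values measure the spread between pairs of such cultures. DMSO was sampled at 72 h, so time and drug cannot be told apart where 8 h or 24 h libraries are set against it.

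FGF18 is a secreted fibroblast growth factor. Such ligands bind FGF receptors, which act through the adaptor FRS2 on the RAS and MAP kinase cascade, and the cascade turns on its own inhibitors of the Sprouty and DUSP families. EZH2 is the methyltransferase of Polycomb repressive complex 2, which places H3K27me3 on silent genes, many of them with CpG-rich promoters, and REST is a DNA-binding repressor that recognises the RE1 element. FGF18 matters most in bone, cartilage and lung development and is not a characteristic gene of erythroid cells.

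Below, 4 promoters are printed with every CpG in capitals. They are those of FGF18, UBTD2 and SH3PXD2B, which had the largest log2 fold changes with both drugs at 72 h, and of LCP2, which moved in another way. A part of CpG content in the response to the drugs was not tested, and these promoters were picked by the levels. Each runs 5′ to 3′ on the gene's strand, from 250 bases before to 50 bases after the start (RefSeq, GRCh38.p14).
FGF18 chr5:171419397-171419696 (+): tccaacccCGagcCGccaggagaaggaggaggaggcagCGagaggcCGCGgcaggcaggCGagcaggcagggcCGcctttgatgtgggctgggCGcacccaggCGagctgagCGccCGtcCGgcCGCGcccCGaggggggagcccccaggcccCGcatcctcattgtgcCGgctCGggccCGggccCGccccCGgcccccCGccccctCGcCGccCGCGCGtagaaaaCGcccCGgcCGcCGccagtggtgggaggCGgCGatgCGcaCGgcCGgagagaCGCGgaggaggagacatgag
UBTD2 chr5:172283715-172284014 (-): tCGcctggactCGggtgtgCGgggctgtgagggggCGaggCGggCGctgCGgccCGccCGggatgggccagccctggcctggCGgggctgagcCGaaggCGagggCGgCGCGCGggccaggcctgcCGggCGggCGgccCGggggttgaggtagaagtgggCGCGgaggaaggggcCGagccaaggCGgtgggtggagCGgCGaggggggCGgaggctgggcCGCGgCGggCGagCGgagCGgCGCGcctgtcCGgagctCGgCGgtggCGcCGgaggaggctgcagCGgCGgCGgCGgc
SH3PXD2B chr5:172454476-172454775 (-): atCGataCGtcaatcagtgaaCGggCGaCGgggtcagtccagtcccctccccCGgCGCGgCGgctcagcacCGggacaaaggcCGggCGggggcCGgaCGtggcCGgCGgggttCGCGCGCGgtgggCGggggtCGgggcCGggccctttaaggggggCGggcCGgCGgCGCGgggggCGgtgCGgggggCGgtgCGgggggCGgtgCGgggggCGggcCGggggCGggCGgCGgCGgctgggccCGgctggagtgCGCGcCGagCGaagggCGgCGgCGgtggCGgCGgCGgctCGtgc
LCP2 chr5:170297728-170298027 (-): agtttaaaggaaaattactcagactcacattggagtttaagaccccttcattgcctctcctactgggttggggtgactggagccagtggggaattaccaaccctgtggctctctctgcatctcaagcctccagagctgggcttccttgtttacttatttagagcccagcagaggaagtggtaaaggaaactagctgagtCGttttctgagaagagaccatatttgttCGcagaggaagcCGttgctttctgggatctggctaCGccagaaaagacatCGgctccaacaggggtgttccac
The SH3PXD2B window held 52 CpGs, the UBTD2 window 44, the FGF18 window 38 and the LCP2 window 5. The median over 35116 promoters of the same length was 14. Fewer CpGs than in these windows were found in 99.2% of promoters for SH3PXD2B, 95.8% for UBTD2, 90.1% for FGF18 and 29.6% for LCP2. Of the 10 genes, 9 had an entry, with a pair of entries for NPM1. RANBP17 (39), NEURL1B (40) and the downstream NPM1 start (33) were also CpG-rich, FBXW11 had 27, the upstream NPM1 start 13 and EFCAB9 4. The left part of the RE1 element, CAGCACC on either strand, stood in the SH3PXD2B window and the upstream NPM1 window and in 7.75% of all promoters. The right part, GGACAGC, stood in the EFCAB9 window and in 6.03%. The joined form, left and right part 2 bases apart, was in 0.0427% of promoters (15) and in none of these windows, which says only that these letters were not there.

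The drug libraries held 22925617 to 38177320 reads counted on genes, and the excision libraries 55913728 to 98507880 estimated counts. CPM are reads of a gene scaled to a common library size. All 12 erythroid markers fixed for K562 averaged at least 1 CPM in both arms. That level was also reached by 2 of 5 lymphoid markers and by 3 of 6 fibroblast and epithelial markers in each arm. The share of reads that mapped to several places differed, at 26.1% to 26.7% with both drugs for 72 h and 10.8% to 13.3% at 8 h and 24 h, against 19.0% to 19.5% with DMSO. The EV, S2KO and S1KO pairs were far more unlike than the DKO pair, with a chi-square per gene of 327 in EV, 311 in S2KO and 189 in S1KO, against 14.7 in DKO.

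Per length, the 10 genes spanned a wide range in the excision arm. NPM1 had a median of 1760 TPM (a length-corrected level) over the 8 libraries and stood above every other member in each. FBXW11 had 12.4 TPM, LCP2 9.32, STK10 2.75 and RANBP17 0.922, each as a median, and among these 4 each range overlapped that of the next gene. UBTD2 had 0.218 TPM, SH3PXD2B 0.135, FGF18 0.0329 and NEURL1B 0.0068, again with overlapping ranges, and EFCAB9 had no count in any of the 20 libraries. The genes that moved most were thus among the least abundant, and in bulk RNA a change in how many cells express a gene cannot be told apart from a change in RNA per cell.

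FGF18, the growth factor, was barely detected without drug. With both drugs for 72 h it had 1.45 and 0.954 CPM (33 and 25 reads), against 0.041 and 0.160 CPM (1 and 4 reads) with DMSO. The groups did not overlap, and the summed counts gave a ratio of 11.6 (95% interval 4.71 to 37.2, exact, covering counting error only). The log2 fold change was 3.50 ± 0.68 (SE, n = 2 each), with an adjusted p of 0.000808 by edgeR's quasi-likelihood test with Benjamini-Hochberg adjustment, the test used for every adjusted p below. In that comparison 4 of the 7 members tested were called, 3 higher and 1 lower, and of all genes tested 36.4% were called at an adjusted p under 0.05. The members' median log2 fold change was 0.37, against 0.01 over all genes. The members were chosen with earlier results of these data known, so such shares and medians, here and below, describe the list and do not test it.

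Neither single drug gave FGF18 a call. It had 0.248 and 0.370 CPM (7 and 12 reads) with GSK343 and 0.102 and 0.037 CPM (3 and 1 reads) with X5050. The GSK343 libraries stood above both DMSO libraries and the X5050 libraries overlapped them, with log2 fold changes of 1.58 ± 0.77 (adjusted p = 0.205) and -0.51 ± 0.98 (adjusted p = 0.799). A level of 3 reads, the limit that a count of 0 allows, is worth 0.077 to 0.131 CPM in these libraries, so the X5050 and DMSO levels were at that limit. Both drugs at 72 h stood above GSK343 by 1.93 ± 0.56 on the log2 scale (adjusted p = 0.0122) and above X5050 by 4.01 ± 0.70 (adjusted p = 0.000478). The first call was lost without replicate 1 of both drugs (adjusted p = 0.12), without replicate 1 of GSK343 (0.1) and with DESeq2 (0.0689). The departure from additivity of the 2 drugs was 2.43 ± 1.16 (adjusted p = 0.161).

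**Figure D1:**
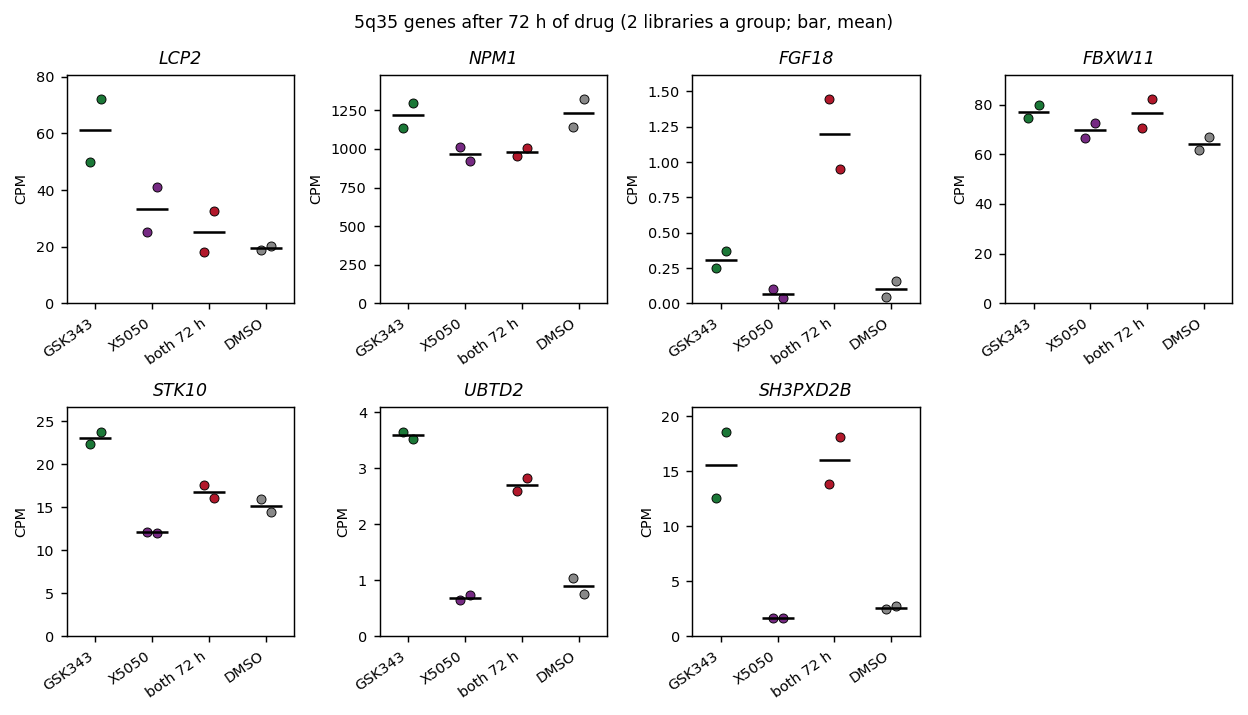
CPM of the 7 tested members in each 72 h library (points, 2 a group) with group means (bars), on linear axes from 0. FGF18 is highest with both drugs (0.954 to 1.45 CPM), and SH3PXD2B and UBTD2 are high in the 2 groups that received GSK343.

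SH3PXD2B encodes TKS4, an adaptor of podosomes and invadopodia. It had 12.5 and 18.6 CPM with GSK343, 1.63 and 1.68 CPM with X5050 and 13.8 and 18.1 CPM with both drugs at 72 h, against 2.44 and 2.72 CPM with DMSO. The groups given GSK343 lay far above the others and overlapped each other. GSK343 raised it by 2.59 ± 0.24 (log2, adjusted p = 5.68e-06) and both drugs by 2.63 ± 0.24 (7.25e-07), comparisons that share the DMSO libraries. X5050 gave -0.64 ± 0.27 (adjusted p = 0.136). Both drugs against GSK343 alone gave 0.04 ± 0.22 (adjusted p = 0.904).

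UBTD2 encodes a cytosolic protein with a ubiquitin-like domain. It had 3.65 and 3.52 CPM with GSK343, 0.644 and 0.731 CPM with X5050 and 2.59 and 2.82 CPM with both drugs at 72 h, against 1.03 and 0.760 CPM with DMSO. The order was the same as for SH3PXD2B except that both drugs together lay below GSK343 alone, without overlap. GSK343 raised it by 2.00 ± 0.29 (log2, adjusted p = 0.000305) and both drugs by 1.59 ± 0.29 (0.000526), and X5050 gave -0.38 ± 0.33 (adjusted p = 0.508). The difference between both drugs and GSK343 did not pass the test (-0.40 ± 0.26, adjusted p = 0.231).

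LCP2 encodes SLP-76, an adaptor of immune receptor signalling in T cells, myeloid cells and platelets. It had 50.1 and 72.1 CPM with GSK343, 25.03 and 41.2 CPM with X5050 and 18.0 and 32.5 CPM with both drugs at 72 h, against 19.0 and 20.3 CPM with DMSO. The GSK343 libraries stood highest, and both drugs together overlapped DMSO. GSK343 raised it by 1.64 ± 0.29 (log2, adjusted p = 0.00527), but leaving out DMSO replicate 1 (0.0607) or 2 (0.114) ended the call. Both drugs were lower than GSK343 by -1.27 ± 0.29 (adjusted p = 0.0054). X5050 alone gave 0.75 ± 0.29 over DMSO (adjusted p = 0.126), so the value of X5050 had the opposite sign when GSK343 was present. The difference between these values, the departure from additivity, was -2.02 ± 0.41 (adjusted p = 0.0071), and that call was lost without DMSO replicate 1 (0.0566) or 2 (0.0644). LCP2 was the 1 member of 7 called for it, where 18.8% of all genes were called.

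STK10 encodes a serine/threonine kinase of ERM proteins in lymphocytes. It had 22.3 and 23.8 CPM with GSK343, 12.1 and 12.03 CPM with X5050 and 17.6 and 16.0 CPM with both drugs, against 16.0 and 14.4 CPM with DMSO. GSK343 stood above DMSO by 0.60 ± 0.15 (log2, adjusted p = 0.013), and the call ended on leaving out DMSO replicate 2 (0.0796) or GSK343 replicate 1 (0.0537) or 2 (0.152) and with only these groups fitted (0.0762). Both drugs were lower than GSK343 (-0.46 ± 0.15, adjusted p = 0.0197) and higher than X5050 (0.47 ± 0.15, adjusted p = 0.0227), and each of these calls was lost whichever 1 library was left out, with adjusted p up to 0.156 and 0.162.

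NPM1, the abundant nucleolar chaperone nucleophosmin, and FBXW11, an F-box subunit of the SCF ubiquitin ligase that recognises beta-catenin and IκB, moved little at 72 h. NPM1 had 1134 and 1299 CPM with GSK343, 1012 and 921 CPM with X5050 and 951 and 1005 CPM with both drugs, against 1144 and 1323 CPM with DMSO. Both drugs stood below DMSO by -0.33 ± 0.11 (log2, adjusted p = 0.0284), a call lost without replicate 1 (0.168) or 2 (0.0827) of both drugs, without DMSO replicate 2 (0.14) and with the trend over GC content removed (0.109). NPM1 has processed copies elsewhere in the genome, and the share of reads mapping to several places was also highest in these libraries. Its part in the result was not tested. FBXW11 had 70.7 and 82.3 CPM with both drugs, against 61.7 and 67.0 CPM with DMSO, and gave 0.25 ± 0.11 (adjusted p = 0.099), a value that removing the GC trend turned into a call (0.34, adjusted p = 0.02005).

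Over the single drugs, GSK343 called 4 of 7 members, all higher, against 12.4% of all genes tested, and their median log2 fold change was 1.58, against 0.00 over all genes. X5050 called 0 of 7, against 12.6% of all genes. By the same edgeR test 4 members had an unadjusted p under 0.05 with X5050, and DESeq2 called 1 (LCP2, adjusted p = 0.0143). GSK343 set directly against X5050 called 5 of 7, all higher, where 21.1% of all genes were called. SH3PXD2B differed by 3.23 ± 0.25 and UBTD2 by 2.38 ± 0.29 (adjusted p = 6.73e-07 and 4.27e-05). STK10 differed by 0.93 ± 0.15 (adjusted p = 0.000339). The call of LCP2 (0.0493) held in 2 of 4 fits without 1 library and in 4 of 7 other alternatives. That of NPM1 (0.0459) was lost whichever 1 library was left out and held in 1 of 7 other alternatives. Both drugs against GSK343 called 4 members, 1 higher and 3 lower, where 39.4% of all genes were called. Both drugs against X5050 called 4, all higher, where 30.3% were called. Because the list was chosen with earlier results known, these shares are a description of it only.

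**Figure D2:**
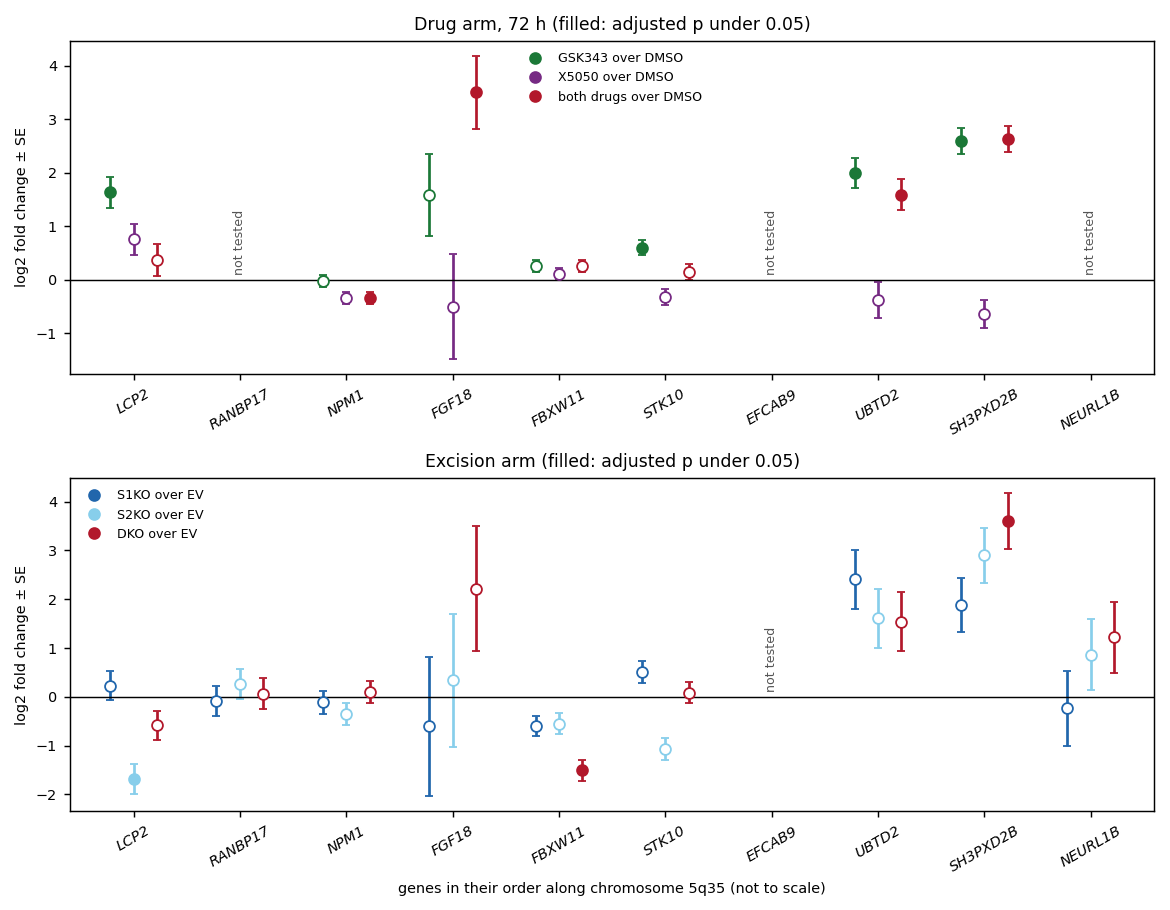
Log2 fold change ± SE of each member in its order along 5q35 (upper panel, drugs for 72 h over DMSO; lower panel, excision over EV; filled points passed an adjusted p of 0.05, with 2 libraries a group). At 72 h SH3PXD2B and UBTD2 lie above 0 with GSK343 and with both drugs. Both genes also lie above 0 in the 3 excised lines, where SH3PXD2B in DKO passed the test.

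The time course of both drugs separated the genes. UBTD2 was high already at 8 h, LCP2 peaked at 24 h, and SH3PXD2B and FGF18 were highest at 72 h. At 8 h 3 of 7 members were higher than DMSO and 0 lower, where 43.0% of all genes were called. At 24 h 4 were higher and 0 lower, where 43.1% were called, so the share of members called at 8 h was near the background.

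UBTD2 had 3.63 and 3.83 CPM at 8 h, 1.76 and 1.84 CPM at 24 h and 2.59 and 2.82 CPM at 72 h, with 1.03 and 0.760 CPM in DMSO. The 8 h libraries were the highest, and the libraries of the 3 times did not overlap. The log2 fold change over DMSO was 2.05 ± 0.29 at 8 h (adjusted p = 3.54e-05) and 1.00 ± 0.30 at 24 h (0.0122, lost without DMSO replicate 2, at 0.0822, or either 24 h library). The 24 h libraries lay below the 8 h ones by -1.05 ± 0.26 (adjusted p = 0.00501), a call lost without replicate 1 at 24 h (0.0548).

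LCP2 had 15.7 and 15.9 CPM at 8 h, 68.2 and 65.8 CPM at 24 h and 18.0 and 32.5 CPM at 72 h. It rose by 2.08 ± 0.29 from the 8 h to the 24 h group (log2, adjusted p = 0.000329) and the 72 h libraries lay below those of 24 h by -1.40 ± 0.29 (0.0024). Both calls held with any 1 library left out. At 24 h it stood above DMSO by 1.77 ± 0.29 (adjusted p = 0.000679).

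SH3PXD2B had 2.17 and 1.79 CPM at 8 h and 2.24 and 2.24 CPM at 24 h, each pair just below the DMSO libraries, and 13.8 and 18.1 CPM at 72 h. The step between 24 h and 72 h was 2.83 ± 0.24 (log2, adjusted p = 4.19e-07). Against DMSO the values were -0.39 ± 0.26 at 8 h (adjusted p = 0.244) and -0.20 ± 0.26 at 24 h (0.556).

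FGF18 had 0.146 and 0.179 CPM at 8 h (5 and 7 reads), 0.448 and 0.267 CPM at 24 h (14 and 8 reads) and 1.45 and 0.954 CPM at 72 h. Each later time stood above the earlier one without overlap. The 72 h libraries exceeded the 24 h ones by 1.72 ± 0.55 (log2, adjusted p = 0.0172), a call lost without replicate 2 at 24 h (0.148), without replicate 1 at 72 h (0.154), with DESeq2 (0.0945) and with the GC trend removed (0.111). At 24 h the value over DMSO was 1.78 ± 0.75 (adjusted p = 0.0676), and removing the GC trend turned it into a call (0.0348), as did leaving out DMSO replicate 2 (0.0469).

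NPM1 had 1682 and 1646 CPM at 8 h, 1869 and 1745 CPM at 24 h and 951 and 1005 CPM at 72 h. It stood above DMSO by 0.43 ± 0.11 at 8 h (log2, adjusted p = 0.00545) and 0.55 ± 0.11 at 24 h (0.000931), and lay lower at 72 h than at 24 h by -0.88 ± 0.11 (1.34e-05). FBXW11 followed with 0.48 ± 0.11 at 8 h (0.00269) and 0.56 ± 0.11 at 24 h (0.000864), and its lower level at 72 h than at 24 h (-0.31 ± 0.11, 0.0337) was lost without either 24 h library (up to 0.152), without replicate 1 at 72 h (0.283) and with the GC trend removed (0.509). The share of reads mapping to several places was lowest at 8 h and 24 h, when NPM1 was highest, and its part in the result was not tested. STK10 had 16.7 and 20.1 CPM at 8 h and 14.0 and 14.8 CPM at 24 h, with no call against DMSO (adjusted p = 0.135 and 0.7), although with the GC trend removed 8 h was called (0.54, adjusted p = 0.00571). Between 8 h and 24 h 2 members were called, 1 higher and 1 lower, where 35.8% of all genes were called. Between 24 h and 72 h 5 were called, 2 higher and 3 lower, where 45.9% were called.

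**Figure D3:**
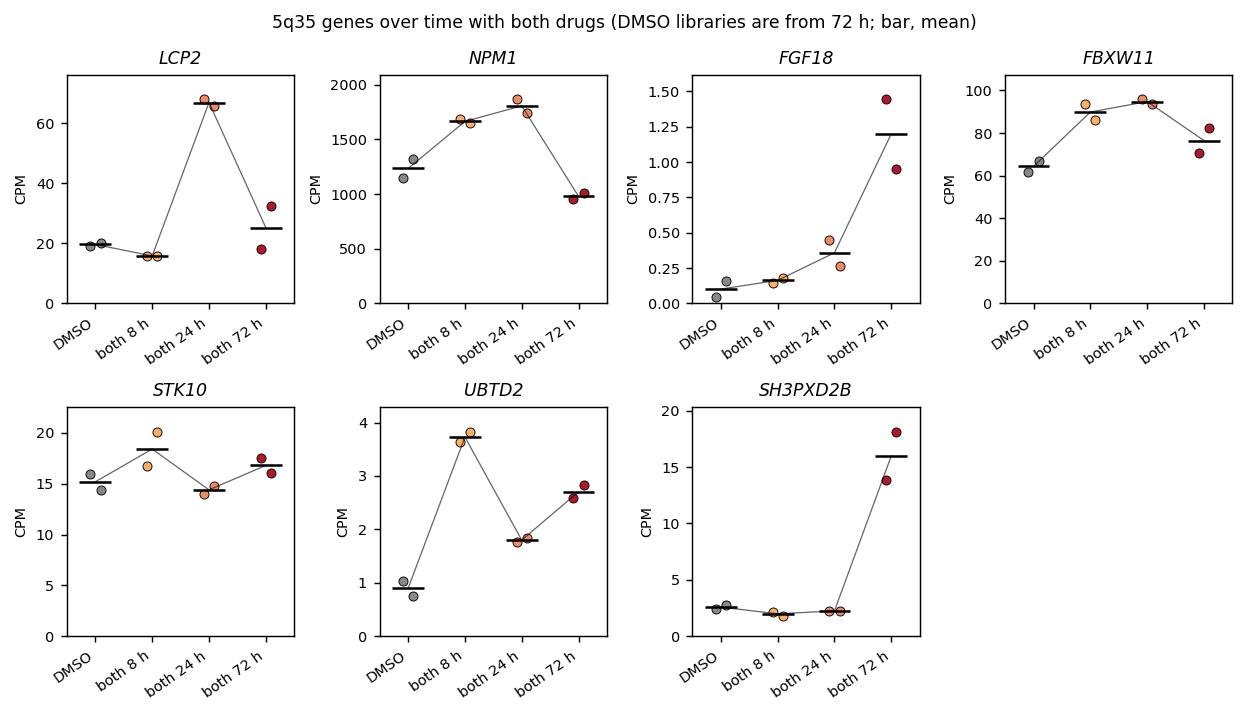
CPM of the 7 tested members in DMSO (72 h) and with both drugs at 8 h, 24 h and 72 h (points, libraries; bars, means; thin line, means joined), on linear axes from 0. UBTD2 is highest at 8 h (3.63 and 3.83 CPM), LCP2 at 24 h (68.2 and 65.8 CPM), and FGF18 and SH3PXD2B at 72 h.

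RANBP17, a member of the importin-beta family, had no read in 11 of the 12 drug libraries and 3 in the other, and EFCAB9, known in mouse sperm as a calcium sensor of the CatSper channel, had none. NEURL1B, a Neuralized-type ubiquitin ligase of Notch ligands, had at most 8 reads. These 3 genes did not pass the low-count filter in the drug arm. A library with 0 reads allows up to 0.077 to 0.131 CPM. In the excision libraries RANBP17 had 0.729 to 1.08 CPM, of which RANBP17-216, a transcript annotated as processed and not coding, held 84.2% to 99.2% of the gene's TPM, so its level there is mostly that transcript. The strand used in that estimation is not given in the sources used here.

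The genes whose log2 CPM followed FGF18 most closely over the 12 drug libraries were LATS2, a Hippo pathway kinase (Pearson r = 0.965), ZFYVE1 (0.963) and RGS20 (0.962), out of 12406 protein-coding candidates. SH3PXD2B was followed by GPR157 (0.970), CTSV (0.968) and MCF2L (0.959), and UBTD2 by TSHZ3 (0.930) and RASSF8 (0.906). The points share 6 groups, so these values describe the pattern over treatments. RGS20, for example, averaged 5.60 CPM with both drugs at 72 h, against 0.992 CPM with DMSO.

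The excision arm compares the same genes between excised K562 and EV. The labels do not say whether the lines are clones, so excision and other differences between lines cannot be told apart. The DKO libraries held 55913728 and 59444567 estimated counts, against 76457904 to 98507880 in the other groups. Deviations of same-numbered libraries correlated at 0.488 to 0.622 among EV, S1KO and S2KO, and at -0.0843 to -0.0591 with DKO. The part of these differences in the DKO values was not tested. SH3PXD2B was higher and FBXW11 lower in DKO than in EV, the calls among 9 members tested, where 8.77% of all genes were called. The members' median log2 fold change was 0.10, against 0.01 over all genes. The groups compared with EV share its libraries. Here and in the drug arm above, the share of all genes whose groups did not overlap was not counted, so such separation describes the members only.

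SH3PXD2B had 2.65 and 1.97 CPM in DKO, 0.625 and 0.777 CPM in S1KO and 0.991 and 1.85 CPM in S2KO, against 0.101 and 0.275 CPM in EV (8 and 23 estimated counts). Every excised library stood above both EV libraries. The DMSO libraries of the drug arm, which were counted by another method, had 2.44 and 2.72 CPM. Why EV lay lower than DMSO was not tested. DKO exceeded EV by 3.60 ± 0.58 (log2, adjusted p = 0.0128), a call lost without DKO replicate 1 (0.0829) or 2 (0.0607) and with counts scaled from TPM (0.0594). S2KO gave 2.90 ± 0.56 (adjusted p = 0.0637) and S1KO 1.88 ± 0.55 (0.149), and DESeq2 called both (4.22e-05 and 0.0243). With the replicate number added to the edgeR fit as a block, S2KO was called (0.0285).

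UBTD2 had 1.08 and 0.840 CPM in DKO, 1.25 and 2.25 CPM in S1KO and 0.669 and 1.34 CPM in S2KO, against 0.177 and 0.478 CPM in EV. Here too the excised libraries stood above both EV libraries, and the DMSO libraries of the drug arm had 1.03 and 0.760 CPM by the other method. The log2 values were 1.54 ± 0.61 in DKO (adjusted p = 0.18), 2.41 ± 0.61 in S1KO (0.0997, called by DESeq2 at 0.00357) and 1.61 ± 0.60 in S2KO (0.355). With the replicate block S1KO was called (0.0286).

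FGF18 had 0.274 and 0.258 CPM in DKO (16 estimated counts in each), 0.061 and 0.011 CPM in S1KO (6 and 1) and 0.116 and 0.026 CPM in S2KO (9 and 2), against 0.114 and 0 CPM in EV (9 and 0). The DKO libraries stood above the other 6, which overlapped among themselves, and the limit that 0 counts allow was 0.036 CPM in the EV library without a count. The ratio of summed counts in DKO to those in EV was 4.81 (95% interval 2.24 to 11.5, counting error only). It did not pass the test across libraries (log2 2.21 ± 1.28, adjusted p = 0.35), and neither did the single excisions (S1KO -0.61 ± 1.43, 0.915; S2KO 0.34 ± 1.36, 0.992).

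FBXW11 had 23.1 and 23.4 CPM in DKO, 38.6 and 48.6 CPM in S1KO and 39.8 and 50.5 CPM in S2KO, against 57.1 and 75.0 CPM in EV. The DKO libraries were lowest, and no excised library reached the EV range. DKO was lower than EV by -1.51 ± 0.21 (log2, adjusted p = 0.00868), a call lost without DKO replicate 1 (0.0906) or 2 (0.0871). S1KO gave -0.60 ± 0.21 (adjusted p = 0.225) and S2KO -0.55 ± 0.21 (0.366).

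The transcripts of FBXW11 differed between groups as well. FBXW11-201, a protein-coding transcript, had 205 and 42.3 estimated counts in DKO, 5.77 and 0 in S1KO and 106 and 369 in S2KO, against 676 and 1098 in EV. It made up 8.40% and 1.58% of the gene's TPM in DKO and 0.083% and 0% in S1KO, against 8.94% and 10.7% in EV. FBXW11-211, a processed transcript, made up 10.2% and 8.95% in DKO and 7.89% and 6.50% in S1KO, against 1.70% and 2.06% in EV, with S2KO at 1.81% and 0.932%. FBXW11-202 held 29.04% to 42.9% in every library. Estimates of how reads divide among overlapping transcripts carry an error that the deposited values do not give, so these shares stand without a test.

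**Figure D4:**
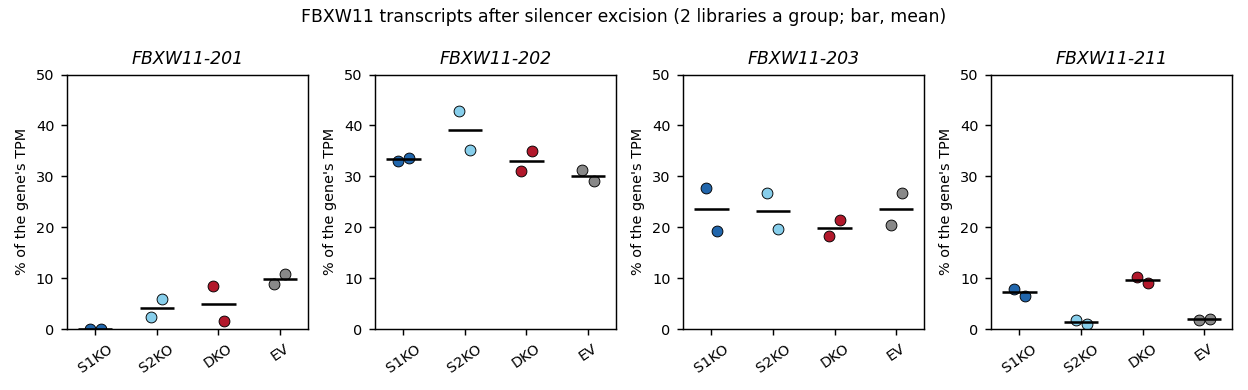
Share of FBXW11 TPM held by 4 of its transcripts in each excision library (points, 2 a group; bars, means). FBXW11-201 lies at 0.083% and 0% in S1KO, against 8.94% and 10.7% in EV, while FBXW11-211 is higher in S1KO and DKO than in S2KO and EV.

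LCP2 had 16.6 and 13.4 CPM in DKO, 19.6 and 33.2 CPM in S1KO and 5.92 and 8.14 CPM in S2KO, against 21.4 and 23.7 CPM in EV. S2KO was lowest and was the comparison with a call (-1.68 ± 0.30, adjusted p = 0.0499), the 1 member of 9 called there, where 2.01% of all genes were called. That call was lost whichever 1 library was left out (0.104 to 0.164). STK10 had 14.9 and 14.2 CPM in DKO, 19.0 and 19.95 CPM in S1KO and 5.28 and 7.82 CPM in S2KO, against 14.0 and 13.5 CPM in EV. Its S2KO value was -1.07 ± 0.22 (adjusted p = 0.0804), and was called by DESeq2 (0.00113) and with the replicate block (0.0475). DKO stood above S2KO by 1.15 ± 0.22 (0.0496), a call lost in 3 of 4 fits without 1 library.

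S1KO against EV called 0 of 9 members by edgeR, where 3.67% of all genes were called. There 3 members had an unadjusted p under 0.05, DESeq2 called 2 and the replicate block called 1. DKO against S1KO also called 0 of 9, where 1.09% were called, with 3 at an unadjusted p under 0.05 and 2 called by DESeq2. DKO against S2KO called 1 of 9, STK10, where 2.96% were called. NPM1 had 2362 and 2678 CPM in DKO, 2479 and 1856 CPM in S1KO and 2150 and 1537 CPM in S2KO, against 2574 and 2124 CPM in EV, each excised group overlapping EV, and adjusted p of 0.7 to 0.895. NEURL1B had 3 to 10 estimated counts a library and no call.

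**Figure D5:**
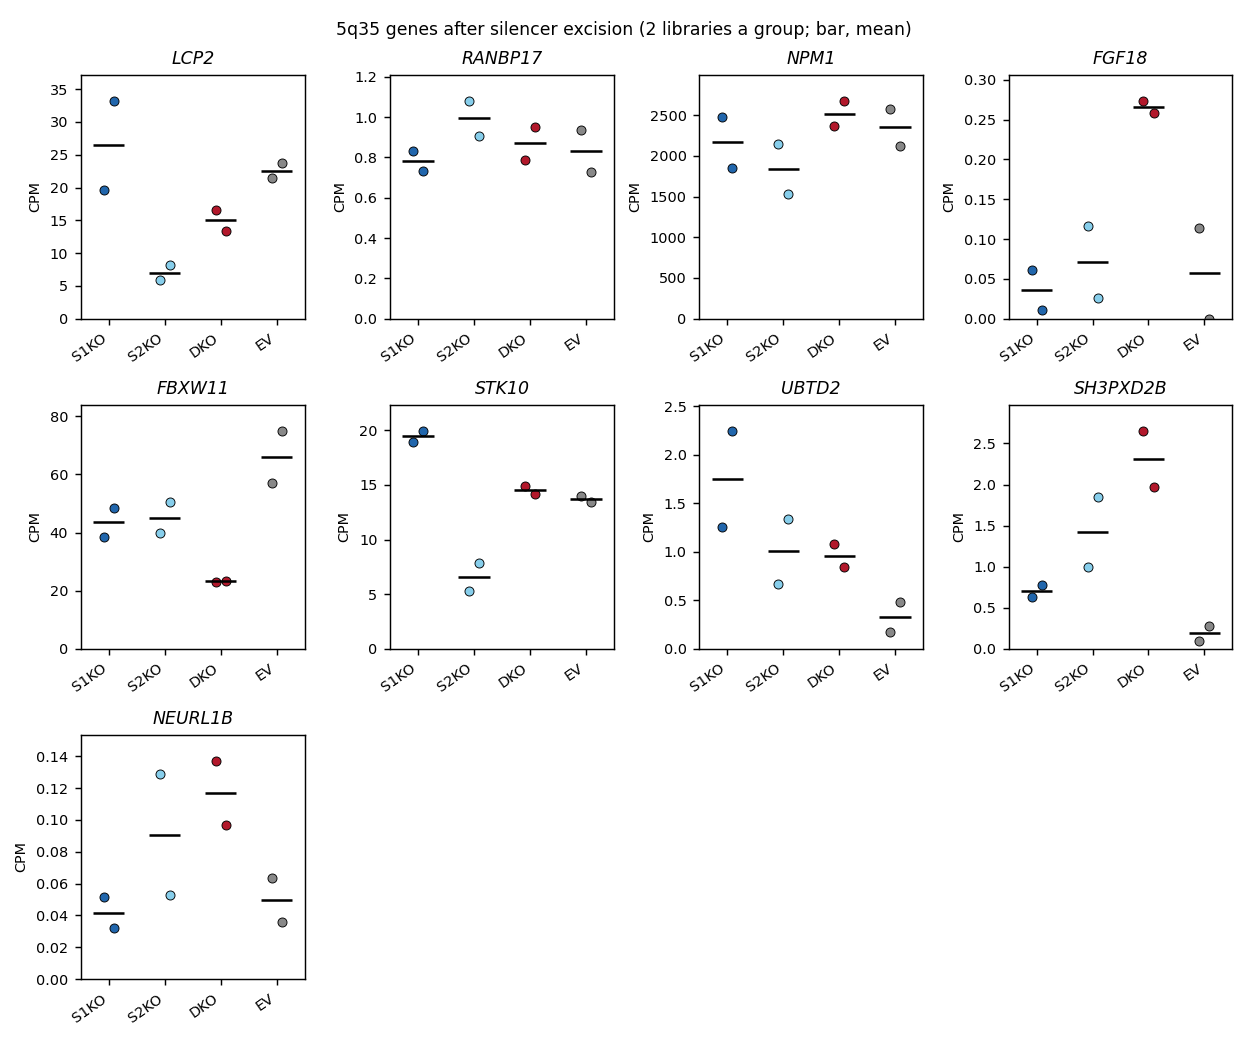
CPM of 9 members in each excision library (points, 2 a group; bars, means) on linear axes from 0, with EV at the right of each panel. SH3PXD2B and UBTD2 are higher and FBXW11 is lower in all 6 excised libraries than in the EV pair. The share of all genes separated in this way was not counted. FGF18 is highest in DKO (0.258 and 0.274 CPM).

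The excised lines also differed from EV in other ways. The 12 erythroid markers summed to 17026 to 19947 CPM in DKO, 9270 to 16632 CPM in S1KO and 6013 to 12747 CPM in S2KO, against 2724 to 6267 CPM in EV. The 6 fibroblast and epithelial markers summed to 198 to 221 CPM in DKO, 94.0 to 116 CPM in S1KO and 68.5 to 93.3 CPM in S2KO, against 62.1 to 84.6 CPM in EV, with 1 of the 6 at 0 in every library. The part of these differences in the members' values was not tested. In the drug arm the erythroid sum was 1681 to 2275 CPM with GSK343, 2979 to 5996 CPM with X5050 and 4759 to 6140 CPM with both drugs at 72 h, against 2352 to 2511 CPM with DMSO. These sums do not describe each of the 12 markers. Both drugs at 72 h called 6 higher and 5 lower, where 36.4% of all genes were called. X5050 called 2 higher and 2 lower (12.6% of all genes), and GSK343 called 0 higher and 1 lower (12.4%). In the excision arm DKO called 3 higher and 0 lower (8.77%), and S1KO (3.67%) and S2KO (2.01%) each 2 higher and 0 lower.

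Of 20 other 5q35 genes, 14 were tested in the excision arm. DKO called 4 of them, 1 higher and 3 lower, where 8.77% of all genes were called. C5orf58, an open reading frame of unknown function, had 16.4 and 17.0 CPM in DKO, 13.3 and 11.5 CPM in S1KO and 0.026 and 0.039 CPM in S2KO, against 0.202 and 0.251 CPM in EV. It rose in DKO by 6.19 ± 0.28 (log2, adjusted p = 0.000196). DOCK2, a guanine nucleotide exchange factor of haematopoietic cells, had 13.5 and 9.95 CPM in DKO, 8.87 and 11.4 CPM in S1KO and 9.69 and 22.2 CPM in S2KO, against 123 and 159 CPM in EV, and fell in DKO (log2 -3.59 ± 0.43, adjusted p = 0.00464). BOD1 (-1.05 ± 0.21, 0.0271) and BNIP1 (-0.90 ± 0.20, 0.0412) were the other calls.

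In the drug arm 12 of the 20 were tested. With both drugs at 72 h 9 were called, 6 higher and 3 lower, where 36.4% of all genes were called. They were led by ATP6V0E1, a subunit of the vacuolar proton pump (1.60 ± 0.14, adjusted p = 3.42e-07), CPEB4 (1.19 ± 0.14, 8.81e-06), BOD1 (0.85 ± 0.15, 0.00031) and SPDL1 (-0.63 ± 0.12, 0.000552). GSK343 called 1 of the 12, DOCK2 (0.62 ± 0.18, 0.0337), a share below its background of 12.4%. X5050 called 0 by edgeR, with 3 at an unadjusted p under 0.05 and 1 called by DESeq2.

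Genes of the FGF pathway were set beside the ligand. With both drugs at 72 h 9 of 18 tested were higher and 2 lower, with GSK343 7 were higher and 0 lower, and with X5050 4 were higher and 0 lower. The shares of all genes called in these comparisons were 36.4%, 12.4% and 12.6%. SPRY4, a feedback inhibitor, averaged 127 ± 12.8 CPM with GSK343, 82.8 ± 10.8 CPM with X5050 and 96.5 ± 16.8 CPM with both drugs, against 31.6 ± 3.5 CPM with DMSO (SD, n = 2 each). Its log2 fold changes were 2.01 ± 0.14, 1.39 ± 0.14 and 1.61 ± 0.14 in that order (adjusted p = 4.73e-07, 2.12e-05 and 4.36e-07). DUSP5, a nuclear ERK phosphatase, averaged 18.3 CPM with GSK343, 11.6 CPM with X5050 and 69.7 CPM with both drugs, against 6.08 CPM with DMSO. DUSP4 averaged 4.80 CPM with GSK343, 1.65 CPM with X5050 and 16.6 CPM with both drugs, against 1.01 CPM with DMSO, and the X5050 value was not a call (adjusted p = 0.197). FGFR1, a receptor, rose with GSK343 by 2.82 ± 0.42 (adjusted p = 0.000362), and FRS2, the adaptor, rose with both drugs by 1.31 ± 0.14 (2.49e-06). With both drugs at 24 h SPRY4 averaged 269 CPM, DUSP5 91.9 CPM and FGF18 0.358 CPM. A link between FGF18 and the levels of these genes was not tested.

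In the excision arm 1 of 20 FGF pathway genes was called in DKO by edgeR, where 8.77% of all genes were called. There 6 had an unadjusted p under 0.05, and DESeq2 called 4. The edgeR call was SPRY1, another feedback inhibitor. SPRY1 averaged 2.88 CPM in DKO, against 0.446 CPM in EV (log2 2.69 ± 0.38, adjusted p = 0.00798). S1KO and S2KO called 0 of 20 each by edgeR, with 2 each at an unadjusted p under 0.05 and 1 each called by DESeq2.

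The drug targets and their partners gave 14 tested genes. EZH2 itself averaged 128 CPM with GSK343, 126 CPM with X5050 and 109 CPM with both drugs at 72 h, against 142 CPM with DMSO, and REST averaged 65.3, 77.0 and 69.4 CPM in the same order, against 60.7 CPM with DMSO. GSK343 called 2 lower, EZH1 (-1.01 ± 0.16, adjusted p = 0.000669) and EHMT2 (-0.53 ± 0.14, 0.0198). X5050 called 2 lower, EZH1 (-0.53 ± 0.16, 0.0379) and RBBP4 (-0.33 ± 0.10, 0.0466), and both drugs at 72 h called 1 higher and 4 lower. In either direction these shares of the list were near those of all genes, which were 12.4%, 12.6% and 36.4%. The shares of all genes called lower were smaller, at 3.31%, 7.23% and 17.3% in the same order. DKO called 2 lower, RBBP4 (-0.73 ± 0.13, 0.0163) and RCOR1 (-1.64 ± 0.31, 0.0247), where 8.77% of all genes were called.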

How the data were processed

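Total RNA libraries were made with a stranded kit that removes ribosomal RNA, per the labels' protocols. The submitters' processing notes name Trimmomatic 0.38, STAR 2.7.3a, kallisto 0.44.0 and hg19. The deposited drug tables hold raw read counts per gene in 3 strand settings, and the reverse-strand counts were used. The deposited excision tables hold estimated counts and TPM per transcript, which were summed per gene (84.7% of transcripts were found in GENCODE 29) and rounded. Rows that name no gene held 34.0% to 50.7% of drug reads and were left out. Both arms were fitted separately under R 4.3.3 with edgeR 4.0.16, using TMM factors, filterByExpr, a mean for each group and Benjamini-Hochberg adjustment over 19224 or 21285 genes. CPM used TMM-scaled library sizes. Alternatives were DESeq2 1.42.0, RLE factors, no filter, a replicate block, unstranded or TPM-scaled counts, only the groups compared, each library left out and, added after seeing the data, removal of the GC trend. The code was tested on simulated data. Called genes of each list with the lowest p were named, and the genes most like FGF18, SH3PXD2B and UBTD2 by Pearson r. A gene that this rule would name is not reported here. The members and lists were chosen with earlier results of these data known. GENCODE 29 is built on GRCh38, and its coordinates were used only to put the members in order along the chromosome.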

Additional observations from a re-analysis of the deposited data

Results flagged for a closer look

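LCP2 was marked because the effect of X5050 differed with and without GSK343 by -2.02 on the log2 scale (SE 0.41, adjusted p = 0.0071 by edgeR's quasi-likelihood test with Benjamini-Hochberg adjustment over all genes). LCP2 averaged 25.3 CPM with both drugs at 72 h and 61.1 CPM with GSK343, and 33.1 CPM with X5050 and 19.6 CPM with DMSO. The call was lost without DMSO replicate 1 (0.0566) or 2 (0.0644), with the value between -2.51 and -1.66 over the fits that left out 1 library.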

How the results depend on the processing

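Of 40 member calls over 16 comparisons, 22 held with any 1 library left out, 27 held under every other alternative run, and 22 held under both. The numbers of members called that moved by over 1.5 times were these. With DESeq2 they were 2 in DKO against S1KO, 3 in DKO against S2KO, 2 in S1KO against EV, 3 in S2KO against EV and 1 in X5050 against DMSO. With TPM-scaled counts they were 1 in DKO against EV, 0 in DKO against S2KO and 0 in S2KO against EV. With only the groups compared they were 1 in DKO against S1KO, 0 in DKO against S2KO, 3 in GSK343 against X5050 and 0 in S2KO against EV. With RLE factors GSK343 against X5050 had 3, without a filter S2KO against EV had 2 and X5050 against DMSO 1, and with the GC trend removed DKO against S2KO had 0 and X5050 against DMSO 1.

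Genes called over the whole table with DESeq2 were 3100 in DKO against EV, 841 in DKO against S1KO, 1586 in DKO against S2KO, 1647 in S1KO against EV and 1084 in S2KO against EV. TPM-scaled counts gave 1200, 97, 307, 417 and 192 in the same order. Only the groups compared gave 2.41 times the 233 genes of the full fit in DKO against S1KO, and 312 in DKO against S2KO, 300 in S1KO against EV, 0 in S2KO against EV, 1118 in GSK343 against DMSO, 617 in X5050 against DMSO and 2314 for the departure from additivity, and no filter gave 350 in DKO against S1KO.

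The replicate numbers were not treated as pairs in the main fit. Same-numbered libraries deviated together (correlation over 0.1) in 4 of 15 pairs of drug groups and 3 of 6 pairs of excision groups. A replicate block gave 3172 genes in DKO against EV, 434 in DKO against S1KO, 1286 in DKO against S2KO, 1348 in S1KO against EV and 716 in S2KO against EV. The block gave 1 member in DKO against S1KO, 2 in DKO against S2KO, 1 in S1KO against EV, 3 in S2KO against EV and 1 in X5050 against DMSO. Calls gained with it were UBTD2 in S1KO (adjusted p = 0.0286), SH3PXD2B (0.0285) and STK10 (0.0475) in S2KO and LCP2 with X5050 (0.0301). The 3 correlated excision pairs were S1KO with S2KO (0.566), S1KO with EV (0.488) and S2KO with EV (0.622). The pairs with DKO lay at -0.0843 to -0.0591. The main tests of S1KO and S2KO against EV thus left a shared replicate difference out of the fit.

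Leaving out 1 library gave 526 to 1333 genes in DKO against EV, 17 to 36 in DKO against S1KO, 101 to 302 in DKO against S2KO, 249 to 446 in S1KO against EV, 157 to 329 in S2KO against EV, 739 to 4287 in GSK343 against DMSO, 815 to 3121 in X5050 against DMSO, 1816 to 4349 in GSK343 against X5050, 4178 to 4710 between 8 h and 24 h, 3597 to 4907 in both drugs against X5050 and 2296 to 4854 for the departure from additivity. The members called ranged over 0 to 2 in DKO against EV, 0 to 1 in DKO against S2KO, 2 to 3 in GSK343 against DMSO, 3 to 4 in GSK343 against X5050, 0 to 0 in S2KO against EV, 0 to 1 in X5050 against DMSO, 1 to 2 between 8 h and 24 h, 1 to 2 in both drugs against GSK343, 3 to 5 between 24 h and 72 h and 0 to 1 for the departure from additivity. With 1 library left in a group it was assumed to vary like the others.

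Signs turned only for values that were not calls. With the GC trend removed SH3PXD2B (0.0437) and STK10 (0.17) at 24 h against DMSO and NPM1 with GSK343 (0.0184) changed sign, and with TPM-scaled counts STK10 in DKO (-0.10). Without 1 library FGF18 ranged from -2.23 to 4.57 in S1KO, -1.06 to 5.52 in S2KO and -1.35 to 0.71 with X5050, LCP2 from -0.20 to 0.57 in S1KO and -0.12 to 0.73 with both drugs at 72 h, and NPM1 from -0.0366 to 0.22 in DKO, -0.17 to 0.0886 with GSK343 and -0.34 to 0.0801 in S1KO. RANBP17 ranged from -0.11 to 0.23 in DKO and -0.27 to 0.0754 in S1KO, and NEURL1B from -0.60 to 0.18 in S1KO. The cause was not tested. Counts of FGF18 were at most 16 a library in the excision arm and 33 in the drug arm, which limits what can be detected.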
